A study of Mus musculus with 30 samples.

Results

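Gene expression in the frontal cortex 12 h after lipopolysaccharide (LPS) was compared with that at 6 h after it, over all genes. The comparison rests on 8 of the 30 RNA libraries of the series, 4 at each time, taken by the tissue, treatment and time that the labels give, and 17111 of 48820 listed genes had enough counts to be tested. LPS, a cell wall glycolipid of gram-negative bacteria, was given under the skin at 0.5 mg/kg to adult male wild-type C57BL/6J mice, 8 to 12 weeks old, weighing about 30 g and housed singly. All mice, controls included, carried the history of a Gulf War Illness model: 7 days of drinking corticosterone (CORT), the main rodent glucocorticoid, at 200 mg/L with ethanol at 0.6%, then the acetylcholinesterase inhibitor diisopropyl fluorophosphate (DFP) at 4 mg/kg on day 8, and CORT again every other week up to 5 weeks in total. Mice without CORT and DFP were not analysed here, so every value below belongs to animals with that history. Each library came from a different mouse, named A240 to A243 at 6 h and A258 to A261 at 12 h, and values are given in that order. Cortex libraries from 3 mice taken 6 h after saline and 4 mice taken 24 h after LPS are set beside them, as are hippocampal libraries from the same 8 mice. There was no saline group at 12 h, and the clock times of collection are not in the labels, so time after LPS and time of day cannot be told apart in mice kept under 12 h of light and 12 h of dark.

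LPS is sensed through Toll-like receptor 4. Its MyD88 arm activates NF-kB and drives early genes such as Il1b, Tnf and the neutrophil-attracting chemokines, while its TRIF arm induces type I interferon, which then acts through its own receptor on a later set of antiviral genes. In the brain after systemic LPS the first cells reached are the endothelium and the macrophages at the borders, with microglia and astrocytes following. Glucocorticoids restrain NF-kB targets and induce their own set, to which Plin4 and Fkbp5 belong.

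The promoters of 3 genes that rose and of a chemokine gene that fell are shown, so that their letters can be set beside their values. The genes, and the motif marked in each, were picked by hand. Each runs from 250 bases before to 50 bases after the start site that RefSeq gives on GRCm38.p6, 5′ to 3′ on the strand of the gene. Capitals mark matches, on either strand, to the interferon-stimulated response element GAAANNGAAA in the first 3 and to an NF-kB site GGGANNNNCC in the fourth. Cxcl10 (chr5:92348840-92349139, minus strand) encodes a chemokine for T cells, Rsad2 (chr12:26456403-26456702, minus strand) encodes viperin, Ifit3 (chr19:34583279-34583578, plus strand) an antiviral RNA-binding adaptor, and Cxcl2 (chr5:90903649-90903948, plus strand) a chemokine for neutrophils.
Cxcl10: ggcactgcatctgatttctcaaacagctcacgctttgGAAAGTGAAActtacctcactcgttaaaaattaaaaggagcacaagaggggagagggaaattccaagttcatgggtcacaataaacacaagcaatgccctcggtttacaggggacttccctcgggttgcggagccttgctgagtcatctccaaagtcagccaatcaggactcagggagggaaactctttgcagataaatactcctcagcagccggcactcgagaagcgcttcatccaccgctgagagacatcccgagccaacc
Rsad2: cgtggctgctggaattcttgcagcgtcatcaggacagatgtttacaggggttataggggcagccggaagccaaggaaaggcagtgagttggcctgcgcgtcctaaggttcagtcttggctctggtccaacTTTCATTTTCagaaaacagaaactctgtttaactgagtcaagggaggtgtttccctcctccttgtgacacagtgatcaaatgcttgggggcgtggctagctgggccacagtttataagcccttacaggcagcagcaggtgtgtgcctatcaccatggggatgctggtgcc
Ifit3: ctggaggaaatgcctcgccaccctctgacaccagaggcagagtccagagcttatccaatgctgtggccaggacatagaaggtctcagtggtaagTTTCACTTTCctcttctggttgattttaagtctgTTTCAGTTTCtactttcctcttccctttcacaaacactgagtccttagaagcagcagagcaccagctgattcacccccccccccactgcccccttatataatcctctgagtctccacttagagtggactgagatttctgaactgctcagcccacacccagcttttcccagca
Cxcl2: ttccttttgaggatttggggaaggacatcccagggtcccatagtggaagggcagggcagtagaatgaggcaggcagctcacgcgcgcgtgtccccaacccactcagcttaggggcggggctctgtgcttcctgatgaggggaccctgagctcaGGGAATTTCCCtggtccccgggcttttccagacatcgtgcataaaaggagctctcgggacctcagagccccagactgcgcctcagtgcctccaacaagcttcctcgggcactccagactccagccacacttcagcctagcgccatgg
The interferon element lay 213 bases before the start of Cxcl10, 120 bases before that of Rsad2, and 156 and 122 bases before that of Ifit3. The Cxcl2 site, 97 bases before the start, reads as a match on both strands, 1 base apart. The interferon element was present in the promoters of 3.75% of the 12018 tested genes with a RefSeq promoter, against 46.2% of 26 matched members of the antiviral list, 5 of 80 matched genes that rose (6.25%) and 7 of 80 that fell (8.75%). Of the 4 antiviral genes called, 3 were matched and 2 of these, Ifit3 and Rsad2, held it. Trim25 was matched and lacked it, and Mx1 was not matched. The NF-kB site was present in 30.3% of tested genes, in 56.2% of 32 cytokine, NF-kB and acute phase genes, in 19 of 80 that rose and in 27 of 80 that fell. Cxcl10 and Rsad2 hold NF-kB letters as well, left in lower case. These are matches of letters and say nothing of binding.

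Of the 17111 genes tested, 105 were higher and 105 lower at 12 h than at 6 h by edgeR's quasi-likelihood test at an adjusted p under 0.05, which is 0.614% of genes in each direction and 1.23% in all. The change was at least 2-fold for 30 of the genes that rose (0.175% of genes tested) and 20 of those that fell (0.117%). Without edgeR's TMM scaling of libraries, with totals alone, 219 rose and 89 fell, so that 71.1% of calls were rises against 50% with TMM. Every 12 h library lay above every 6 h library for 612 genes (3.58%) and below for 658 (3.85%). Leaving out 1 of the 8 libraries gave between 95 and 291 calls, the fewest without A261 (95), A260 (97) or A240 (100) and the most without A258 (291). Of the 210 genes, 65 kept their call without each library in turn, and 63 also in each other fit that tested them.

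**Figure D1:**
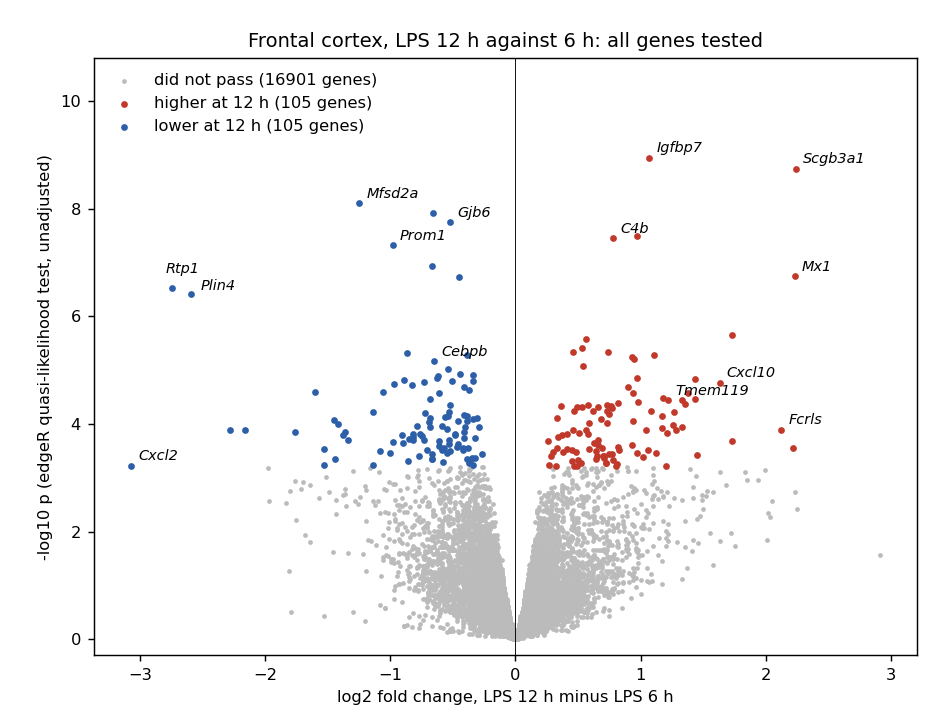
Each point is 1 of 17111 genes, with the log2 fold change of 12 h against 6 h on the x axis and the negative log10 of the unadjusted p of edgeR's test on the y axis. The 105 genes that rose (red) and the 105 that fell (blue) are equal in number, with Igfbp7 and Scgb3a1 at the top on the right and Mfsd2a and Gjb6 among the top on the left.

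The 24 h libraries, from other mice, entered the fit but not the contrast of 12 h with 6 h. There was no saline group at 24 h, so how long an effect of LPS lasted cannot be told. The 24 h mean lay on the 12 h side of the midpoint between 6 h and 12 h for 103 of the 105 genes that rose and 104 of the 105 that fell. Their median ratio of 24 h to 12 h was 0.954 for rises and 1.01 for falls. Saline levels were below both times for 55 of the genes that rose, between them for 45 and above both for 5. For the genes that fell, saline was above both times for 43, between them for 46 and below both for 15. Where the rounded saline mean equalled that of 6 h or 12 h, the gene was left out of this split. The 6 h and 12 h samples enter both these counts and the main comparison, so the counts are a description and have no test.

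Of 35 tested interferon-stimulated genes 4 rose and none fell, with a median log2 fold change of 0.38 against -0.01 over all genes. Mx1 (chr16:97447035-97462907), a GTPase that blocks viral replication, was at 0.217, 0.268, 0.282 and 0.284 CPM (each library's counts scaled to a common total) at 6 h and 0.944, 1.11, 1.5 and 1.48 CPM at 12 h. The groups lay far apart, and the 6 h level was close to the saline mean of 0.218 CPM ± 0.0347 (SD, n = 3). Its log2 fold change was 2.23 ± 0.28 (SE; edgeR adjusted p = 0.000288), from 21 counts in all at 6 h and 112 at 12 h, a ratio of 4.95 (95% interval 3.09 to 8.31, counting error alone). At 24 h Mx1 stood between 0.682 and 1.1 CPM (n = 4).

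Rsad2 was at 1.84, 3.27, 1.97 and 2.46 CPM at 6 h and 4.10, 5.57, 4.92 and 9.30 CPM at 12 h, with A261 the highest. It rose by 1.33 ± 0.24 on the log2 scale (edgeR adjusted p = 0.0118), from a saline mean of 1.12 CPM ± 0.157 (SD, n = 3). Ifit3 was at 18.0, 19.6, 18.9 and 18.1 CPM at 6 h and 36.4, 32.9, 40.0 and 70.8 CPM at 12 h. The 6 h libraries were nearly level while A261 again stood above the rest. Its log2 rise was 1.27 ± 0.22 (edgeR adjusted p = 0.0146, 4.46e-05 to 0.0538 over 19 alternatives, above 0.05 without A240 or A242). Ifit3 and its near copy Ifit3b share sequence, so how reads were divided between them is uncertain. Trim25, a ubiquitin ligase of the RIG-I pathway, rose from 6.29 CPM ± 0.423 to 9.47 CPM ± 1.58 (SD, n = 4 each; log2 0.59 ± 0.13, edgeR adjusted p = 0.0323). That call was lost without A240, A241, A242, A243, A260 or A261, with quality weights and with the 8 libraries alone (adjusted p 0.00425 to 0.108 over the alternatives).

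The other 31 antiviral genes did not pass, with log2 fold changes from -0.67 to 2.01. The number that rose was 2 without A240 or without A242, 7 without A258, and 8 with library totals alone. None of 20 interferon signalling factors or 15 interferon-inducible GTPases passed in the cortex, though 12 of the GTPases rose in the hippocampus of the same mice. Their cortex medians were 0.07 and 0.33, and 1.23% of all genes tested were called in the cortex. Tap1 (chr17:34187553-34197225), the peptide transporter that loads MHC class I, was the riser among 19 genes of that pathway. It was at 3.95, 4.08, 3.52 and 3.74 CPM at 6 h and 6.85, 7.26, 6.92 and 8.18 CPM at 12 h. These groups did not overlap, and the log2 rise was 0.94 ± 0.17 (edgeR adjusted p = 0.00985). The non-classical class I gene H2-T23, which resembles other class I genes so that its reads are uncertain, went the other way, from 46.3 CPM ± 7.82 to 31.2 CPM ± 4.76 (SD, n = 4 each; log2 -0.57 ± 0.13, edgeR adjusted p = 0.0323). Its call was lost without A240, A242, A258, A259 or A260, without a filter and with the 8 libraries alone (adjusted p 0.00205 to 0.109).

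Chemokines and cytokines split. Of 16 tested, 2 rose and 1 fell, and the median was -0.73. Cxcl10 was at 0.812, 1.88, 1.69 and 1.71 CPM at 6 h and 3.53, 4.13, 3.76 and 7.44 CPM at 12 h. All 12 h libraries were above all 6 h ones, A240 being the lowest and A261 the highest. Its log2 rise was 1.63 ± 0.28 (edgeR adjusted p = 0.00792), on top of a rise over saline (0.112 CPM ± 0.0465, SD, n = 3) that had passed at 6 h already (log2 3.64, edgeR adjusted p = 0.000555). Ccl12, a monocyte chemokine, was at 1.89, 1.72, 3.10 and 1.89 CPM at 6 h and 7.14, 5.53, 4.06 and 5.02 CPM at 12 h. It rose by 1.33 ± 0.27 on the log2 scale (edgeR adjusted p = 0.0203), a call lost without A240, A241 or A243 (0.000387 to 0.0724 over the alternatives).

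Cxcl2 had 41 counts over the 6 h libraries and 5 over those at 12 h, a ratio of 8.84 (95% interval 3.49 to 28.6, counting error alone). Its CPM were 0.0541, 0.805, 0.610 and 0.568 at 6 h and 0.0821, 0, 0.150 and 0 at 12 h, so A240 overlapped the later group. The fall just passed (edgeR adjusted p = 0.0496) and was lost without any 1 of the 12 h libraries, in DESeq2 and with quality weights (0.0149 to 0.123 over the alternatives), and the gene was too low to be tested without A241, A242 or A243. Il1b, the fever cytokine interleukin-1 beta, was at 2.65, 8.80, 5.40 and 7.44 CPM at 6 h and 3.24, 1.87, 2.36 and 0.699 CPM at 12 h. A240 again lay inside the 12 h range. The log2 difference of -1.57 ± 0.42 did not pass (edgeR adjusted p = 0.0891, 0.0237 to 0.217 over the alternatives), but did without A240 (0.0442) and in the fits of both tissues. Tnf had a log2 difference of -1.83 ± 0.53, from 0.927 CPM ± 0.250 to 0.255 CPM ± 0.191 (SD, n = 4 each; edgeR adjusted p = 0.0967), with no overlap between groups. It passed in the fits of both tissues (0.0119 to 0.261 over the alternatives). Ccl2, the main monocyte chemokine, was at 2.66 CPM ± 1.61 and 1.26 CPM ± 0.152 (SD, n = 4 each) and did not pass (edgeR adjusted p = 0.302).

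Genes of NF-kB feedback and the acute phase fell where they moved: 3 of 25 fell, none rose, and the median was -0.41. Cebpb (chr2:167688915-167690418), a transcription factor of the acute phase, was at 12.4, 10.6, 11.9 and 11.2 CPM at 6 h and 7.88, 7.26, 6.62 and 7.49 CPM at 12 h. The later values were near the saline mean of 6.70 CPM ± 1.04 (SD, n = 3). Its log2 change was -0.65 ± 0.11 (edgeR adjusted p = 0.00492). Its relative Cebpd fell from 18.8 CPM ± 3.19 to 10.1 CPM ± 2.07 (SD, n = 4 each; log2 -0.90 ± 0.19, edgeR adjusted p = 0.0283). Il1r1, the interleukin-1 receptor, fell from 5.81 CPM ± 1.11 to 3.55 CPM ± 0.498 (SD, n = 4 each; log2 -0.71 ± 0.16, edgeR adjusted p = 0.0323). Both calls were lost without A241, A242, A243, A259, A260 or A261, that of Cebpd also without a filter and that of Il1r1 with quality weights and with the 8 libraries alone (adjusted p 0.000713 to 0.0898 and 0.00234 to 0.0978). The list then kept 1 call without A241, A242, A243, A260 or A261. Lcn2, an iron-binding acute phase protein, was at 12.4, 21.3, 23 and 18.3 CPM at 6 h and 12.3, 9.66, 4.77 and 7.2 CPM at 12 h. Its log2 difference of -1.14 ± 0.31 did not pass (edgeR adjusted p = 0.0935), except without A258 (0.0483) and in the fits of both tissues (0.00515 to 0.215 over the alternatives). Lcn2 at 12 h remained far above the saline mean of 0.276 CPM ± 0.199 (SD, n = 3; log2 4.84 ± 0.58, edgeR adjusted p = 0.000155). None of 17 genes of LPS sensing passed, against 1.23% of all genes tested, and their median was 0.17.

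**Figure D2:**
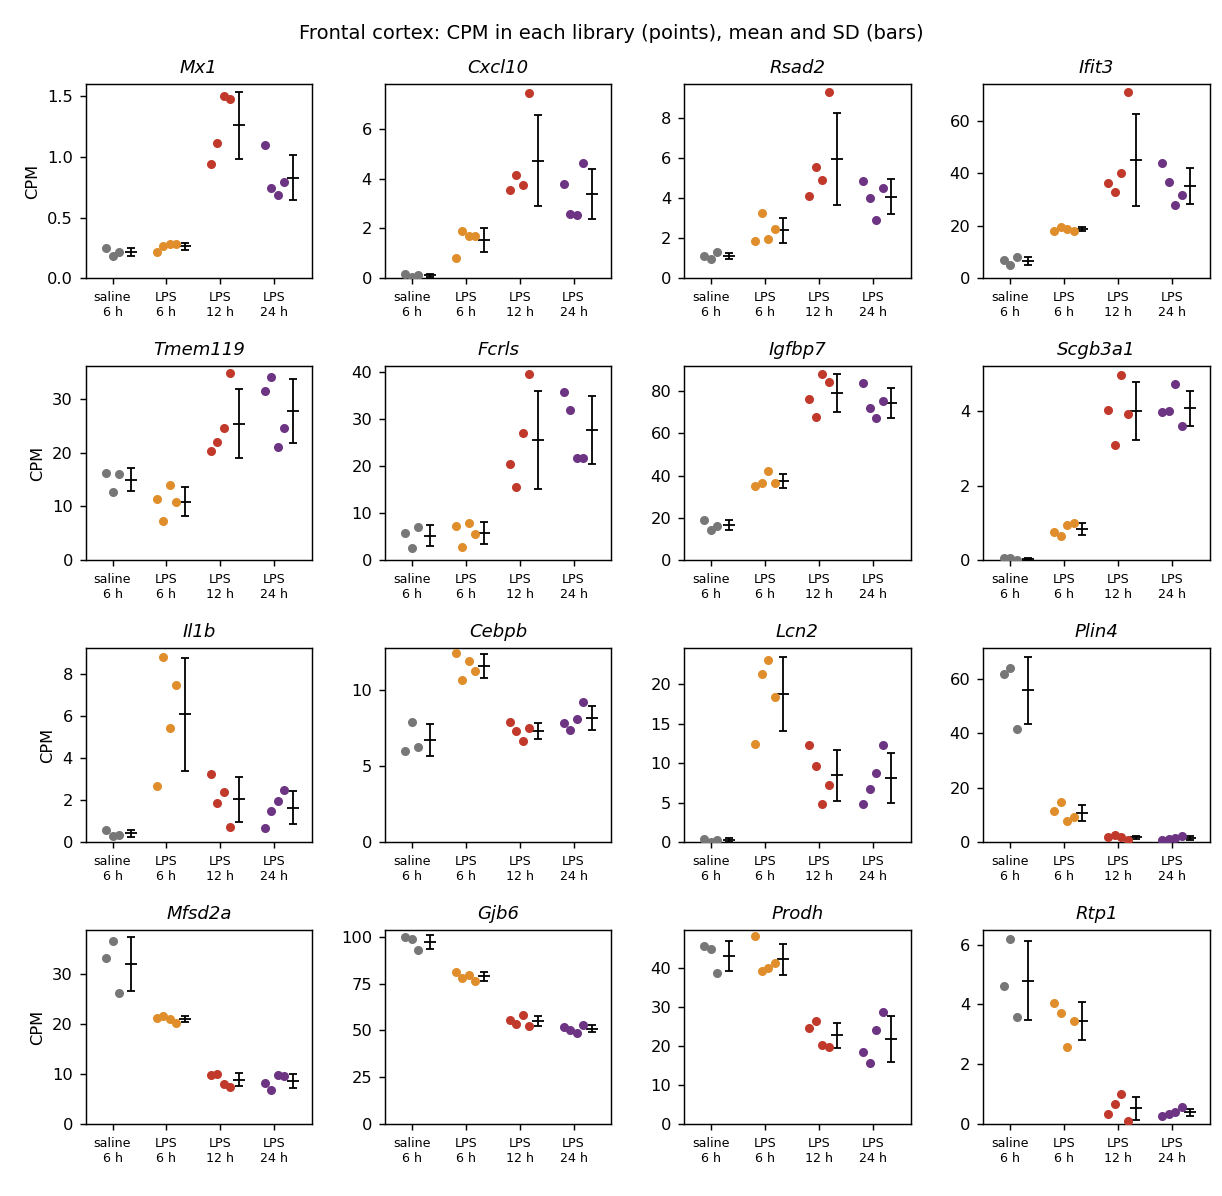
CPM of 16 genes in each cortex library (points; y axes start at 0) for saline at 6 h (n = 3) and LPS at 6, 12 and 24 h (n = 4 each), with mean and SD as black bars. Mx1 sits at the saline level at 6 h and at 0.944 to 1.5 CPM at 12 h, Cebpb is back near saline at 12 h, and Mfsd2a, Gjb6 and Plin4 step down at each of the first 2 times and stay low at 24 h.

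Several microglial identity genes rose after 6 h. Of 22 homeostatic microglia genes 5 rose and 1 fell, with a median of 0.62. Tmem119 (chr5:113793729-113800516), a microglial surface protein, was at 11.4, 7.30, 13.9 and 10.9 CPM at 6 h and 20.4, 22, 24.5 and 34.8 CPM at 12 h. The 6 h values lay within or below the saline range (mean 15 CPM ± 2.12, SD, n = 3) and the 12 h values above it. Its log2 rise was 1.22 ± 0.21 (edgeR adjusted p = 0.0118). Fcrls, an Fc receptor-like microglial gene, was at 7.31, 2.74, 7.84 and 5.49 CPM at 6 h and 20.4, 15.5, 26.9 and 39.4 CPM at 12 h. It rose by 2.12 ± 0.38 (log2; edgeR adjusted p = 0.0212), a call lost without A240, A241, A243, A260 or A261 (3.58e-05 to 0.0684 over the alternatives).

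Cx3cr1, the fractalkine receptor, rose from 27.2 CPM ± 3.82 to 46.3 CPM ± 5.76 (SD, n = 4 each; log2 0.77 ± 0.14, edgeR adjusted p = 0.0138) and missed the threshold in 1 alternative, the fit without a filter (0.0515; 4.1e-05 to 0.0515 over the alternatives). Csf1r, the receptor that microglia need to survive, rose from 54.7 CPM ± 5.52 to 84.8 CPM ± 17.1 (SD, n = 4 each; log2 0.63 ± 0.13, edgeR adjusted p = 0.0283). Tgfbr1, a receptor for TGF-beta, rose from 13.1 CPM ± 1.15 to 19.6 CPM ± 2.15 (SD, n = 4 each; log2 0.58 ± 0.12, edgeR adjusted p = 0.0229), toward a saline mean of 21.5 CPM ± 3.64 (SD, n = 3). The Csf1r call was lost without A240, A241, A242, A260 or A261, without a filter and with quality weights (0.000645 to 0.112), and that of Tgfbr1 without A241, A242, A243, A260 or A261 and with quality weights (0.00133 to 0.0825). The list's risers numbered 2 without A241, A260 or A261, 3 without A240, A242 or A243, and 8 with library totals alone. The member that fell, Cd34, named after its value was seen, is best known from endothelium and blood progenitors (log2 -0.41 ± 0.08, edgeR adjusted p = 0.0157). Its call was lost without A241 or A260 and with the 8 libraries alone (0.000682 to 0.0708).

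P2ry12, the purinergic receptor of resting microglia, did not pass: it was at 9.53, 4.46, 7.65 and 7.34 CPM at 6 h and 9.28, 8.70, 24.0 and 34.8 CPM at 12 h. A258 and A259 lay within or near the 6 h range while A260 and A261 were high (log2 1.41 ± 0.53, edgeR adjusted p = 0.257). The summed CPM of the list was 699 to 840 at 6 h and 749 to 1062 at 12 h, with A261 the highest (exact two-sided permutation p = 0.2, adjusted p = 0.44 over 22 library measures). In tissue RNA, more cells of a type and more RNA per cell cannot be told apart. Among 28 genes of activated microglia and phagocytes 1 rose, Fcgr1, the high-affinity IgG receptor, from 5.25 CPM ± 0.637 to 9.24 CPM ± 2.21 (SD, n = 4 each; log2 0.82 ± 0.15, edgeR adjusted p = 0.0127). Complement C4b (chr17:34728380-34743882) was the riser among 15 complement genes, at 23.8, 25.4, 21.5 and 23 CPM at 6 h and 32.6, 40.9, 42.5 and 45.1 CPM at 12 h. It was near saline at 6 h (20.9 CPM ± 0.761, SD, n = 3) and above in each 12 h library (log2 0.78 ± 0.09, edgeR adjusted p = 8.71e-05). The number of risers among activated microglial genes was 3 without A258, 2 without A259 and 3 with library totals alone.

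Some blood-borne myeloid genes fell. Of 15 neutrophil and monocyte genes 2 fell and none rose, against 0.614% of all genes tested in each direction. The list median was -0.33 against -0.01 over all genes. Haptoglobin, Hp, fell from 2.53 CPM ± 0.506 to 0.964 CPM ± 0.302 (SD, n = 4 each; log2 -1.38 ± 0.29, edgeR adjusted p = 0.0231). The neutrophil collagenase Mmp8 fell from 68 counts over the 6 h libraries to 26 at 12 h (log2 -1.53 ± 0.37, edgeR adjusted p = 0.0496). Both calls were lost without A241, A242, A243, A259, A260 or A261, and that of Mmp8 also without A240 and with quality weights (0.00358 to 0.0865 and 0.0131 to 0.136). The list's summed CPM was 30.9 to 40.0 at 6 h and 18.7 to 31.7 at 12 h, against 8.38 to 11.4 in saline (12 h against 6 h, exact two-sided permutation p = 0.0571, adjusted p = 0.269). Chil3, a chitinase-like protein of myeloid cells, was at 3.90, 5.53, 6.01 and 4.50 CPM at 6 h and 2.34, 3.12, 1.56 and 2.02 CPM at 12 h (log2 -1.14 ± 0.22, edgeR adjusted p = 0.0146). Its call was lost without A260 or A261 (0.000438 to 0.0575). F13a1, a coagulation factor subunit made by border macrophages, fell from 3.45 CPM ± 0.769 to 1.84 CPM ± 0.390 (SD, n = 4 each; log2 -0.91 ± 0.19, edgeR adjusted p = 0.0232). It was the member called among 11 genes of border macrophages and MHC class II, and its call was lost without A240, A241, A258, A260 or A261 and with the 8 libraries alone (0.00295 to 0.0878).

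The most significant changes included genes of blood vessels. Igfbp7 (chr5:77349240-77408041), a secreted protein of brain endothelium, was at 35, 36.4, 42.3 and 36.6 CPM at 6 h and 76.3, 67.8, 88.3 and 84.3 CPM at 12 h. Its level had risen from saline (16.6 CPM ± 2.41, SD, n = 3) by 6 h and rose again by 12 h, by 1.07 ± 0.10 on the log2 scale (edgeR adjusted p = 1.55e-05). Scgb3a1 (chr11:49663610-49665118), a small secreted secretoglobin, was at 0.758, 0.644, 0.939 and 0.995 CPM at 6 h and 4.02, 3.08, 4.97 and 3.91 CPM at 12 h. No library of the later time came near those of the earlier one, and the 24 h mean was 4.07 CPM ± 0.473 (SD, n = 4). Its log2 change was 2.24 ± 0.21 (edgeR adjusted p = 1.55e-05). Ecscr, an endothelial cell surface regulator, rose from 1.94 CPM ± 0.762 to 5.31 CPM ± 1.61 (SD, n = 4 each; log2 1.43 ± 0.26, edgeR adjusted p = 0.0118).

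The opposite course was that of Mfsd2a (chr4:122946850-122961188), the lysolipid transporter that limits vesicle traffic across the blood-brain barrier. Its CPM were 21.3, 21.7, 21.1 and 20.3 at 6 h and 9.85, 10.1, 8.08 and 7.44 at 12 h. Both sets were tight, and both lay below the saline mean of 32 CPM ± 5.33 (SD, n = 3). The log2 change was -1.25 ± 0.13 (edgeR adjusted p = 4.44e-05), and the 24 h mean was 8.68 CPM ± 1.43 (SD, n = 4). It was the member that fell among 24 genes of barrier and endothelial identity, of which 2 rose, with a median of 0.10.

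The risers were Pecam1, an adhesion molecule at endothelial junctions, from 22.2 CPM ± 2.88 to 32 CPM ± 4.45 (SD, n = 4 each; log2 0.53 ± 0.10, edgeR adjusted p = 0.0134), and Esam, another junction protein, from 18.1 CPM ± 2.07 to 25.3 CPM ± 4.49 (SD, n = 4 each; log2 0.48 ± 0.11, edgeR adjusted p = 0.0346). The Pecam1 call was lost without A240 and that of Esam without A240, A241, A243, A260 or A261, and both with the 8 libraries alone (0.000275 to 0.056 and 0.00419 to 0.126). Clec14a, an endothelial lectin, had fallen against saline at 6 h (log2 -1.47, edgeR adjusted p = 0.0017) and rose from 1.66 CPM ± 0.447 to 3.71 CPM ± 0.958 by 12 h (SD, n = 4 each; log2 1.17 ± 0.24, edgeR adjusted p = 0.0208). That rise was lost without A241, A243, A260 or A261 (0.000713 to 0.0783). Among 24 genes of endothelial activation 1 rose and 1 fell. Adamts9, a matrix protease, was at 5.58, 8.00, 6.71 and 6.16 CPM at 6 h and 13.5, 16.6, 20 and 9.87 CPM at 12 h (log2 1.17 ± 0.22, edgeR adjusted p = 0.0159), a call lost without A240, A242 or A243 and without a filter (3.69e-05 to 0.0615). P-selectin, Selp, which tethers leukocytes, was at 3.41, 7.46, 6.52 and 6.11 CPM at 6 h and 3.57, 3.36, 1.20 and 2.47 CPM at 12 h. A240 and A258 overlapped, and the log2 change of -1.14 ± 0.27 (edgeR adjusted p = 0.0484) lost its call without A241, A242, A243, A260 or A261, with library totals alone, without a filter, with quality weights and with the 8 libraries alone (0.00673 to 0.115). Rgs5, the pericyte signalling regulator, rose from 62.2 CPM ± 5.93 to 80.3 CPM ± 6.55 (SD, n = 4 each; log2 0.37 ± 0.08, edgeR adjusted p = 0.023), the riser of 12 mural genes, lost without A240, A241 or A261 and with the 8 libraries alone (0.00104 to 0.089).

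**Figure D3:**
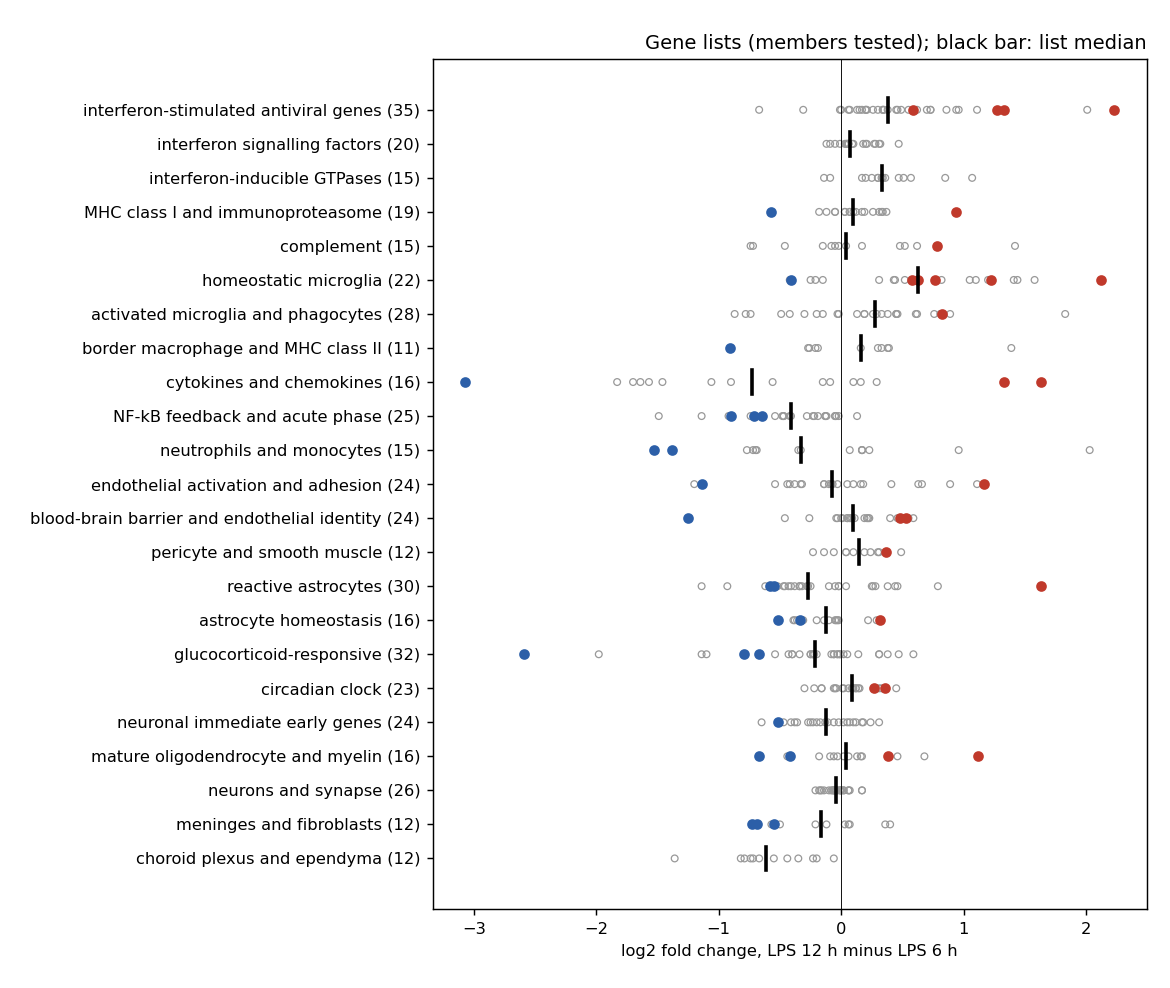
Each point is a tested member of the gene list named on the left, with its log2 fold change of 12 h against 6 h on the x axis. Filled red points rose and filled blue points fell by edgeR's test, open points did not pass, and the black bar is the median of the list. Homeostatic microglia (median 0.62) and antiviral genes (0.38) lie to the right, cytokines (-0.73) and NF-kB feedback genes (-0.41) to the left, and neuronal genes stay within -0.21 to 0.17.

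Among 16 astrocyte homeostasis genes 2 fell and 1 rose, with a median of -0.12. Gjb6 (chr14:57123303-57133611), the gap junction protein connexin 30, was at 81.4, 78.0, 79.8 and 76.1 CPM at 6 h and 55.7, 53.3, 58.4 and 52.5 CPM at 12 h. Saline stood at 97.2 CPM ± 3.79 (SD, n = 3) and 24 h at 50.9 CPM ± 1.91 (SD, n = 4). The log2 change of -0.52 ± 0.06 was small and well beyond the spread (edgeR adjusted p = 6.02e-05). Glul, which turns glutamate into glutamine, fell from 1800 CPM ± 78.3 to 1430 CPM ± 79.4 (SD, n = 4 each; log2 -0.34 ± 0.06, edgeR adjusted p = 0.0076). The member that rose was Slc4a4, a bicarbonate transporter (log2 0.32 ± 0.08, edgeR adjusted p = 0.0496). Leaving out any library except A260 ended the Slc4a4 call, as did the fit of 8 libraries alone (0.00467 to 0.123). Prodh, the first enzyme of proline breakdown, was outside the lists and was at 48.2, 39.3, 39.9 and 41.4 CPM at 6 h and 24.7, 26.4, 20.3 and 19.9 CPM at 12 h. The 6 h values were near saline (43.1 CPM ± 3.79, SD, n = 3), and the log2 change was -0.89 ± 0.15 (edgeR adjusted p = 0.00775). Gfap, the intermediate filament of reactive astrocytes, was at 295, 396, 285 and 253 CPM at 12 h, each above all 6 h libraries, of which A243 was the lowest at 204 CPM. It did not pass (log2 0.46 ± 0.14, edgeR adjusted p = 0.113) except in DESeq2 (0.0349 to 0.27 over the alternatives). Of 30 reactive astrocyte genes 1 rose, Cxcl10, and 2 fell, Fbln5 and Srgn. Neither fall was called with library totals alone or without A240, A241, A242, A260 or A261.

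Among 32 glucocorticoid-responsive genes 3 fell and none rose, with a median of -0.21. Plin4 (chr17:56100591-56109803), a lipid droplet coat protein, was at 11.5, 14.7, 7.75 and 9.28 CPM at 6 h and 1.85, 2.50, 1.91 and 0.946 CPM at 12 h. The saline mean was 55.8 CPM ± 12.3 (SD, n = 3), so the gene had dropped by 6 h and dropped again by 12 h. The second step was -2.59 ± 0.30 on the log2 scale (edgeR adjusted p = 0.000507). The metallothioneins Mt1 and Mt2, metal-binding proteins that are neighbours on chromosome 8, fell from 333 CPM ± 72.6 to 193 CPM ± 10.3 and from 133 CPM ± 31.3 to 83.9 CPM ± 15.4 (SD, n = 4 each). Their log2 changes were -0.79 ± 0.15 (edgeR adjusted p = 0.0201) and -0.67 ± 0.15 (edgeR adjusted p = 0.0407). The Mt1 call was lost without A240, A242 or A261 and without a filter, and that of Mt2 also without A258 or A259 and with the 8 libraries alone (3.72e-05 to 0.0718 and 0.000909 to 0.127). Fkbp5, a chaperone of the glucocorticoid receptor, was at 48.2 CPM ± 7.68 and 35.9 CPM ± 5.29 (SD, n = 4 each), with no overlap, and did not pass (log2 -0.43 ± 0.13, edgeR adjusted p = 0.125). Its saline mean was 100 CPM ± 18.3 (SD, n = 3).

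The clock list bears on the time of day. Of 23 genes 2 rose and none fell, with a median of 0.09. Dbp, a clock output transcription factor, was at 54.4, 52.0, 51.6 and 58.9 CPM at 6 h and 72.4, 65.9, 76.2 and 64.4 CPM at 12 h (log2 0.36 ± 0.07, edgeR adjusted p = 0.0134). Nr1d2, the repressor REV-ERB beta, was at 116 CPM ± 7.01 and 140 CPM ± 4.73 (SD, n = 4 each; log2 0.27 ± 0.06, edgeR adjusted p = 0.0496). It kept its call without A241 and lost it without any other library, and with DESeq2 size factors, quality weights, the 8 libraries alone or mitochondrial genes left out (0.00524 to 0.155). Per1 (log2 0.31 ± 0.16, edgeR adjusted p = 0.423) and Arntl (log2 -0.16 ± 0.07, edgeR adjusted p = 0.331), which peak at opposite phases, did not pass. In the hippocampus of the same mice no gene of the clock list rose and 2 fell, with a median of -0.05. The part of the time of day in the other changes was not tested.

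Several falls belonged to none of these groups. Rtp1 (chr16:23429133-23433960), a chaperone for olfactory receptors, was at 4.06, 3.7, 2.58 and 3.46 CPM at 6 h and 0.328, 0.673, 1 and 0.123 CPM at 12 h. It was near its saline mean of 4.80 CPM ± 1.32 (SD, n = 3) at 6 h, and at 24 h it was 0.401 CPM ± 0.117 (SD, n = 4). The log2 change was -2.74 ± 0.34 (edgeR adjusted p = 0.000421). Prom1, the membrane protein prominin 1, fell from 13.4 CPM ± 1.77 to 6.81 CPM ± 0.558 (SD, n = 4 each; log2 -0.98 ± 0.11, edgeR adjusted p = 0.000102), after a fall against saline at 6 h (log2 -0.57, edgeR adjusted p = 0.00464). Gli1, the transcription factor that reads out Hedgehog signalling, fell from 4.60 CPM ± 0.817 to 2.35 CPM ± 0.137 (SD, n = 4 each; log2 -0.97 ± 0.17, edgeR adjusted p = 0.00796). Cited1, a transcriptional co-regulator, fell from 3.85 CPM ± 0.549 to 1.83 CPM ± 0.446 (SD, n = 4 each; log2 -1.06 ± 0.19, edgeR adjusted p = 0.00985). Tppp3, a tubulin-binding protein, fell from 63.8 CPM ± 13.9 to 35.9 CPM ± 3.7 (SD, n = 4 each; log2 -0.83 ± 0.14, edgeR adjusted p = 0.00844). Cyp1b1, a cytochrome P450 enzyme, was at 9.26, 21.1, 10.4 and 13.9 CPM at 6 h and 6.77, 4.90, 4.77 and 3.45 CPM at 12 h (log2 -1.45 ± 0.27, edgeR adjusted p = 0.0172). That call was lost without A260 or A261 and without a filter (1.14e-05 to 0.0689).

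No neuronal or synaptic gene passed among 26, with log2 fold changes of -0.21 to 0.17, nor did any of 14 cholinergic genes. Of all genes tested 1.23% were called, so having no call in lists this short is near that share. Ache, the enzyme that DFP inhibits, was at 44.0 CPM ± 3.69 and 49.9 CPM ± 9.42 (SD, n = 4 each; log2 0.18 ± 0.12, edgeR adjusted p = 0.565). Among 14 neuropeptides Vip fell, from 64.0 CPM ± 2.50 to 48.9 CPM ± 5.09 (SD, n = 4 each; log2 -0.39 ± 0.08, edgeR adjusted p = 0.0172). The Vip call was lost without A240, A260 or A261 and with quality weights (0.000818 to 0.0672). Among 16 myelin genes 2 fell, Mobp and Hapln2. The structural myelin protein Mobp went from 1230 CPM ± 141 to 919 CPM ± 63.7 (SD, n = 4 each; log2 -0.42 ± 0.09, edgeR adjusted p = 0.0323), and Hapln2, a link protein at nodes of Ranvier, from 28.3 CPM ± 2.04 to 17.8 CPM ± 3.41 (SD, n = 4 each; log2 -0.67 ± 0.15, edgeR adjusted p = 0.0408). The Mobp call was lost without A240, A242, A243, A258, A259 or A260, and that of Hapln2 without A240, A241, A242, A243, A260 or A261, without a filter and with quality weights (0.00306 to 0.125 and 0.00248 to 0.134 over the alternatives). None of 12 cortical layer genes, 14 oligodendrocyte precursor genes, 17 heat shock genes, 23 genes of the unfolded protein response or 21 cell division genes passed. For lists this short that is again near the 1.23% called over all genes.

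Some genes of the brain surface fell. Of 12 genes of meninges and fibroblasts 3 fell, at a list median of -0.16. Fmod, the collagen-binding fibromodulin, was at 16.4, 26.7, 21.0 and 20.8 CPM at 6 h and 12.4, 14.7, 13.2 and 11.0 CPM at 12 h (log2 -0.73 ± 0.13, edgeR adjusted p = 0.00775). Ptgds, prostaglandin D synthase, which oligodendrocytes and choroid plexus also express, was at 1230, 1270, 1450 and 1260 CPM at 6 h and 928, 934, 678 and 702 CPM at 12 h (log2 -0.69 ± 0.13, edgeR adjusted p = 0.0176). Its call was lost without A242, A260 or A261 and without a filter (0.000101 to 0.0665). Slc6a13, a GABA transporter of the meninges, fell from 9.09 CPM ± 0.818 to 6.18 CPM ± 0.384 (SD, n = 4 each; log2 -0.55 ± 0.11, edgeR adjusted p = 0.0212), lost without A241, A243, A260 or A261 (0.00166 to 0.0727). The summed CPM of the list was 1348 to 1585 at 6 h and 780 to 1061 at 12 h (exact two-sided permutation p = 0.0286, the smallest that 4 against 4 allows; adjusted p = 0.269 over 22 measures). Without Ptgds it was 120 to 175 and 99.9 to 127, which overlapped (exact two-sided permutation p = 0.0571). The share of counts from mitochondrially encoded genes also separated the groups, at 8.17 to 11.5% at 6 h, highest in A240, and 6.54 to 8.15% at 12 h (exact two-sided permutation p = 0.0286, adjusted p = 0.269). None of the 13 mitochondrial genes passed (median -0.37), and leaving them out of the table gave 216 calls. The part of surface tissue or of mitochondrial share in the other changes was not tested.

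Library totals were 18479503 to 21401131 counts at 6 h and 19286134 to 23762726 at 12 h. The labelled tissue was checked with the marker lists in the LPS libraries of 6 and 12 h, in CPM from library totals alone. Cortical layer genes summed to 914 to 1140 CPM in the 8 cortex libraries and 616 to 692 in the 8 hippocampal ones. Hippocampal genes summed to 479 to 518 and 1410 to 1590 CPM in the same order. In TMM-scaled CPM, choroid plexus and ependyma genes summed to 287 to 861 at 6 h, highest in A241, and 232 to 678 at 12 h, highest in A258. The sums overlapped (exact two-sided permutation p = 0.457). None of the 12 genes passed, and none had a positive log2 fold change (median -0.61).

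In the hippocampus of the same 8 mice 370 genes passed between 6 and 12 h, 2.14% of those tested. Of the cortex calls, 78 passed there in the same direction and none in the opposite one, which is 37.1% of the cortex calls and 21.1% of the hippocampal ones. The sign was the same for 100 of 103 cortex risers and 95 of 101 fallers tested in both tissues, against 58.3% of all 16733 genes. The tissues come from the same mice, so this is not an independent repeat. Cxcl10 rose by 1.80 ± 0.39 in the hippocampus (edgeR adjusted p = 0.0251), Igfbp7 by 0.78 ± 0.08 (8.88e-06) and Scgb3a1 by 1.76 ± 0.19 (1.28e-05), and Rtp1 fell by 2.58 ± 0.35 (0.00119) and Mfsd2a by 1 ± 0.13 (0.000928). Cebpb (log2 -0.16 ± 0.11, edgeR adjusted p = 0.54), Fmod (0.21 ± 0.29, 0.808), Cited1 (-0.12 ± 0.21, 0.855) and Clec14a (0.35 ± 0.17, 0.334) did not pass there. By list, 12 interferon-inducible GTPases (median 0.88) and 11 antiviral genes (median 0.58) rose in the hippocampus, and none fell. In the cortex none of the GTPases passed and 4 antiviral genes rose. The difference between tissues was itself tested as an interaction over 17650 genes. It was called for 0 genes by edgeR (0%), with 1281 at an unadjusted p under 0.05 and a smallest adjusted p of 0.23, and for 11 genes by DESeq2. The cortex change minus the hippocampal change, on the log2 scale, was -0.93 for Fmod (95% interval -1.54 to -0.32), -0.92 for Cited1 (-1.45 to -0.39) and -0.47 for Cebpb (-0.78 to -0.16). Their adjusted p were 0.518, 0.455 and 0.502 by edgeR, so none of these differences passed.

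**Figure D4:**
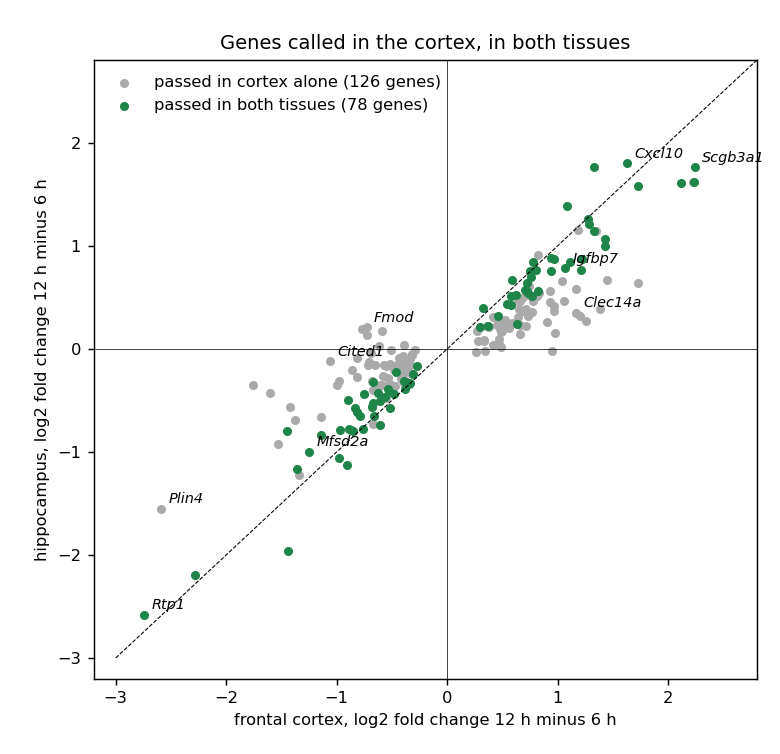
Each point is a gene called between 12 h and 6 h in the frontal cortex and tested in the hippocampus too, with its log2 fold change in the cortex on the x axis and in the hippocampus on the y axis; the dashed line marks equal change. The 78 genes that passed in both tissues (green) share their direction, and Fmod, Cited1 and Clec14a lie nearer 0 in the hippocampus.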

How the data were processed

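Per the labels' protocols, poly(A) RNA was made into stranded libraries and read as pairs of 150 bp. The deposited table held whole-number counts of reads per gene. The submitters' processing notes name Trim Galore 0.4.1, FastQC, STAR 2.6.0a, DESeq2 and the build GRCm38 (mm10). How reads were counted, with which strand setting and annotation release, is not given in the sources used here, so values of near-identical copies and of overlapping or antisense genes are uncertain. Symbols and coordinates (GRCm38, counted from 1) came from GENCODE M21 for 98.4% of 48820 identifiers, and 15948 had no counts.

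All 15 cortex libraries entered 1 fit in edgeR 4.0.16 (R 4.3.3), with group as its sole term, genes kept by filterByExpr (at least 10 counts, 15 in total), TMM factors of 0.931 to 1.04, and robust glmQLFit and glmQLFTest, and 12 h was contrasted with 6 h. P values are two-sided and were adjusted by Benjamini and Hochberg's method across all tested genes, and those under 0.05 were called. CPM were computed with TMM factors from the deposited counts, except in the check of the labelled tissue, which used library totals alone. The hippocampus had a fit of its own, and the 30 libraries together gave the interaction. The SE of a log2 fold change was derived from the test, as its size divided by the square root of the F statistic. The 95% intervals of tissue differences rest on that SE and a normal distribution, so they are approximate. Depth per library (18479503 to 23762726 counts over the 8 libraries) makes genes with few counts the least precise, and where a ratio of pooled counts is printed its 95% interval is exact and covers counting error alone. In simulated counts for 17111 genes, 87 of 100 genes with a log2 change of 1 and 97 of 100 with a change of 2 were recovered, with 13 false calls. Those counts were drawn for each gene separately from its fitted spread. Differences shared by many genes of a library were not simulated, so recovery in the real libraries may differ.

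The labels give each library a mouse code, so replicates are different mice, and replicates differed by more than sampling noise. The codes link cortex and hippocampus: deviations from group means over 12371 genes correlated within the 8 mice at a median r of 0.163 (-0.0279 to 0.353), over 0.1 in 4. For 5 of the 8, the mouse's own hippocampus gave the highest r among mice of its group. For A240, A241 and A243, all at 6 h, that of another mouse did, so the values bear out the link less at 6 h.

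Genes could be named from these sets: the called genes with the largest changes (15 rises, 15 falls) whose groups did not overlap and whose average log2 CPM was 1 or more, without predicted genes; up to 5 members from each of 39 lists; and Ache, Arntl, Ccl2, Cxcl10, Dbp, Fkbp5, Gfap, Il1b, Lcn2, P2ry12, Per1 and Tnf. Some of them are left unprinted. The comparison and the lists were chosen with earlier results of these data known. Alternatives changed the scaling (DESeq2 size factors, or library totals alone), the filter (none, or 10 reads and 1 CPM in 4 libraries), the tool (DESeq2 1.42.0, or limma-voom of limma 3.58.1 with quality weights), the libraries fitted (the 8 alone, both tissues together, or each of the 8 left out in turn), the genes (mitochondrially encoded ones removed) and the mouse as a block. Chosen after seeing the data were limma-voom of both tissues without that block and the meningeal list without Ptgds. Promoters are from RefSeq (GRCm38.p6).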

Additional observations from a re-analysis of the deposited data

Results flagged for a closer look

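In groups of 4 libraries a value was looked at again when its gap to the nearest other value, divided by the whole range of the group, was above Dixon's 95% critical value. Of the groups of 72 genes at 3 times after LPS, 10 held such a value. Chance flags about 1 group in 20, so 10 is about what chance gives. The mouse A261 stood out at 12 h in Cxcl10 (7.44 CPM, the others at 3.53 to 4.13 CPM) and Trim25 (11.8 CPM, the others at 8.60 to 8.83 CPM). Without it, Cxcl10 kept its call and Trim25 lost it. At 12 h, A260 was high in Pecam1 (38.7 CPM, next 30.4 CPM) and A259 in Prom1 (7.64 CPM, next 6.58 CPM), and both calls stayed without that library. At 6 h, A242 was high in Ccl12 (3.10 CPM, next 1.89 CPM), which kept its call without that library, and in Mmp8 (1.08 CPM, next 0.805 CPM), which lost it. At 24 h, A274 was high in Clec14a (5.02 CPM, next 2.92 CPM), A276 was low in Prom1 (6.41 CPM, next 7.41 CPM) and Cd34 (63.8 CPM, next 68.8 CPM), and A278 was low in Ociad2 (82.2 CPM, next 87.6 CPM).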

How the results depend on the processing

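All 210 genes called between 12 h and 6 h kept their direction in each alternative that tested them. Counts of calls moved more. The numbers called, with those higher and lower at 12 h in brackets, were 489 (244, 245) in DESeq2, 674 (338, 336) in an edgeR fit of both tissues, and 640 (287, 353) in limma-voom of both tissues without the block, against 210 (105, 105). With library totals alone 219 rose and 89 fell, and with the 8 compared libraries alone 62 rose and 78 fell. Limma-voom with quality weights gave 79 and 110. Leaving out 1 library at a time gave 95 to 291 calls, 47 to 165 of them higher and 40 to 126 lower. With the mouse as a block, a random effect in limma-voom over both tissues, 652 genes were called (292 higher, 360 lower), close to the same fit without the block. The difference between tissues gave 0 calls in both fits with the mouse as a block, 11 in DESeq2 and 0 to 1 when a library was left out, the 1 without the hippocampal library of A260. The causes were not tested.

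Over 211 genes and 19 alternatives, 3976 values were computed, of which 3509 stayed on their side of the threshold, 244 lost a call and the others gained one, and none of the called ones changed sign. Precision is limited by 4 libraries per group and by low counts, as in Cxcl2 and Mx1.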

Other observations

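Further called genes lay outside the groups described above. Bin2, a membrane-shaping protein of blood cells and microglia, was at 4.11, 3.81, 4.08 and 5.31 CPM at 6 h and 6.28, 7.54, 13.3 and 13 CPM at 12 h (log2 1.21 ± 0.25, edgeR adjusted p = 0.0228). As with P2ry12, A260 and A261 were the highest, and the call was lost without A240, A241, A242, A260 or A261, without a filter and with quality weights (0.00015 to 0.154 over the alternatives). Pla2g3, a secreted phospholipase, fell from 6.48 CPM ± 1.35 to 2.52 CPM ± 1.07 (SD, n = 4 each; log2 -1.36 ± 0.27, edgeR adjusted p = 0.0221), against 12.0 CPM ± 2.50 in saline (SD, n = 3). Asb11, which encodes an adaptor of a ubiquitin ligase, fell from 6.47 CPM ± 0.457 to 3.57 CPM ± 1.12 (SD, n = 4 each; log2 -0.85 ± 0.18, edgeR adjusted p = 0.0254). Both calls were lost without A240, A260 or A261, that of Pla2g3 also without A241 and without a filter, and that of Asb11 also without A242 or A243 and with the 8 libraries alone (0.000125 to 0.0767 and 0.000671 to 0.0877). Utp14b, a ribosome biogenesis gene, was raised against saline at 6 h (log2 0.68, edgeR adjusted p = 0.0123) and was lower at 12 h, at 18.7, 15.1, 9.86 and 15.6 CPM and then 8.70, 8.22, 8.08 and 7.28 CPM (log2 -0.87 ± 0.14, edgeR adjusted p = 0.00431).

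Ociad2, which the list of hippocampal markers holds, fell from 121 CPM ± 5.51 to 89.0 CPM ± 2.57 in the cortex (SD, n = 4 each; log2 -0.45 ± 0.06, edgeR adjusted p = 0.000288) and was at 146 CPM ± 6.40 in saline (SD, n = 3). Of 22 sterol genes 1 fell, Fdft1, which makes squalene, from 89.0 CPM ± 2.72 to 72.0 CPM ± 5.87 (SD, n = 4 each; log2 -0.31 ± 0.06, edgeR adjusted p = 0.0165). That call was lost without A243, A260 or A261, with library totals alone and with the 8 libraries alone (0.000324 to 0.0815), and 3 sterol genes fell without A242 or without A258. Of 24 immediate early genes 1 fell, the stress gene Gadd45b, from 19.1 CPM ± 0.695 to 13.3 CPM ± 1.84 (SD, n = 4 each; log2 -0.52 ± 0.12, edgeR adjusted p = 0.0335), which was lost without A240, A241, A242, A243, A260 or A261 and with quality weights (0.00229 to 0.11).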
